A study of Mus musculus with 10 samples.

Results

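The gene of ASK1 and 9 genes that act with it in stress kinase signalling were examined in RNA sequencing of mouse liver. These 10 genes are Map3k5 (ASK1), its paralog Map3k6 (ASK2), the thioredoxins Txn1 and Txn2 that bind ASK1, the kinase kinases Map2k3, Map2k6, Map2k4 and Map2k7, and the end kinases Mapk8 (JNK1) and Mapk14 (p38α). They were taken by gene name from a table of 54532 genes, all 10 were present, and all 10 passed the filter on low values that left 13306 genes for comparison. The livers came from 10 mice on a C57BL/6J background given HFD, a high-fat diet, for 7 weeks. Feeding began at 6 weeks of age, and livers were taken after a 5 h fast. All 10 carried, on both alleles of the ROSA26 locus, a murine ASK1 cDNA behind a stop cassette flanked by loxP sites. The 5 control mice, ASK1f/f, had no Cre, and in the 5 ASK1+hep mice Cre driven by the albumin promoter removes that cassette in hepatocytes. Other liver cells therefore keep the cassette, and whole liver was sequenced. In such bulk samples, fewer cells of a type and less RNA per cell cannot be told apart.

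ASK1 is a kinase at the top of a relay. Oxidative stress, inflammatory receptors and stress of the endoplasmic reticulum activate it, and reduced thioredoxin holds it inactive by binding its amino-terminal region. Active ASK1 phosphorylates the kinase kinases MKK3 and MKK6, which act on p38, and MKK4 and MKK7, which act on JNK. These steps are phosphorylations of proteins, which RNA sequencing does not measure, so the values below are RNA levels of the genes.

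Expression was available as FPKM, reads per gene scaled by gene length and a library size, and 13367742 to 16163378 reads per liver lay behind it. That size was not the sum of a liver's reads. The ratio of this sum to it ran from 0.941 in ASK1f/f replicate 1 to 1.12 in ASK1+hep replicate 3. FPKM of the latter were thus raised beside values scaled by all reads, which are given where stated. The summed level of 6 hepatocyte markers was 31757 to 43943 FPKM in control and 38171 to 47105 FPKM in ASK1+hep livers, which matches the labelled tissue. The library labelled ASK1+hep replicate 3 stood apart from the rest, being the highest of the 10 livers for 26.4% of the compared genes and the lowest for 26.1%. It was also the highest for 4 of the 10 cascade genes and the lowest for 3. ASK1+hep replicate 5 came next, the highest for 17.2% of the compared genes and the lowest for 15.9%. Among the cascade genes it was the highest for 2 and the lowest for 2. No other library exceeded 11.1% at either end. The library labelled ASK1f/f replicate 5 went against its label in Map3k5 but not in Fgf21, as given below, and genotypes follow the labels throughout.

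The part of each gene that the relay acts on is shown here from its longest coding transcript in GENCODE M21 on GRCm38, as bases of the sense strand from 5′ to 3′. ASK1 and ASK2 are activated at a loop of the kinase domain, and the stretch that encodes it is shown to let the paralogs be compared. Codons 829 to 856 of Map3k5 (chr10:20104208-20108174, plus strand, across an intron) and codons 791 to 818 of Map3k6 (chr4:133248840-133249687, plus strand, across an intron) align without a gap, and capitals mark the 21 of 84 bases that differ.
Map3k5: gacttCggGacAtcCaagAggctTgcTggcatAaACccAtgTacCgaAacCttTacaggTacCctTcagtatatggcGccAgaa
Map3k6: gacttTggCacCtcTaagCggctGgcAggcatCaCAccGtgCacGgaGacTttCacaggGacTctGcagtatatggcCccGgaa
Over the 3723 aligned bases of both coding sequences, 63.66% were identical. No run of 50 bases of a Map3k5 or Map3k6 transcript occurred in a transcript of another gene, so reads of that length fall to a single gene.

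Thioredoxins bind and reduce other proteins through a pair of cysteines in their active site. The codons of both cysteines are in capitals in the stretch that encodes the site, which runs over codons 23 to 43 of Txn1 (chr4:57951797-57951859, minus strand, in an exon) and codons 81 to 101 of Txn2 (chr15:77924627-77927714, minus strand, across an intron).
Txn1: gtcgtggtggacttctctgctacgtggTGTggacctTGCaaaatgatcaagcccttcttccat
Txn2: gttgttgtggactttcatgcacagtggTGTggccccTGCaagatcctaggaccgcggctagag
The codons in capitals are identical between the genes, and 25 of the 63 bases shown differ.

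The kinase kinases and the end kinases are switched on by phosphorylation of a pair of residues in the same loop. The codons of those residues are in capitals in the stretches below, since they are the points at which each step of the relay hands over to the next. They are codons 218 and 222 of Map2k3 (chr11:60946697-60947116, plus strand, across an intron), 207 and 211 of Map2k6 (chr11:110496392-110497902, plus strand, across an intron), 255 and 259 of Map2k4 (chr11:65696360-65707058, minus strand, across an intron) and 287 and 291 of Map2k7 (chr8:4244532-4244700, plus strand, across an intron). In the end kinases they are codons 183 and 185 of Mapk8 (chr14:33392973-33393053, minus strand, in an exon) and 180 and 182 of Mapk14 (chr17:28728363-28728437, plus strand, in an exon).
Map2k3: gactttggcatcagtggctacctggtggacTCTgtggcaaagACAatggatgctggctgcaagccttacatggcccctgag
Map2k6: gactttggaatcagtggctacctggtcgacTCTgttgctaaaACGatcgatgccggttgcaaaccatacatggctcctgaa
Map2k4: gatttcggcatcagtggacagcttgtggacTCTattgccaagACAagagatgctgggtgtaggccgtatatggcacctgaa
Map2k7: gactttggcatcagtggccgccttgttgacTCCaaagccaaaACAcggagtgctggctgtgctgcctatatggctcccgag
Mapk8: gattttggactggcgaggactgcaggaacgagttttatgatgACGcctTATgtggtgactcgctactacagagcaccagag
Mapk14: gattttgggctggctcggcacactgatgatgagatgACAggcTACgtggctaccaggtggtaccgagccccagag
The spacing of the marked codons separates the tiers: 3 codons lie between them in the kinase kinases, and 1 in the end kinases. The p38 kinase kinases Map2k3 and Map2k6 had 72.17% identical bases over 999 aligned ones, and the JNK kinase kinases Map2k4 and Map2k7 had 63.25%. Pairs across these couples were not aligned. The level of Map2k7 is uncertain, because 32.8% of its 50-base runs also occur in Gm49320, a transcript annotated over it on the same strand. The shares were 2.50% for Txn1, with a processed copy of it, 0.908% for Txn2, 0.110% for Mapk8 and 0 for the other 6 genes.

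The levels of the 10 genes, which FPKM puts on a scale per length, spanned more than 2 orders of magnitude in liver. Txn1, the cytosolic thioredoxin, was the highest at 181 ± 34.9 FPKM (SD, n = 10), above 97.8% of the compared genes. Txn2, the mitochondrial thioredoxin, followed at 45.6 ± 12.7 FPKM and Map2k3 at 28.3 ± 7.55 FPKM. Mapk14 was at 19.9 ± 3.16 FPKM and Map3k5 at 10.7 ± 5.13 FPKM, both above 85.4% and 76.6% of the compared genes. Map2k4 and Map2k7, the JNK kinase kinases, were at 7.49 ± 0.723 and 7.41 ± 1.37 FPKM. Mapk8, Map2k6 and Map3k6 were the lowest at 1.46 ± 0.211, 1.39 ± 0.969 and 0.721 ± 0.488 FPKM. Map3k6 and Map2k6 therefore rest on few reads, 9 to 124 and 15 to 151 per liver, against 436 to 1853 for Map3k5.

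Neighbours in this order were compared within livers as differences in log2(FPKM + 1), by exact two-sided sign-flip permutation tests adjusted over 9 pairs. In 5 pairs the order held in at least 9 of 10 livers and the adjusted p was at or below 0.05. Txn1 exceeded Txn2, Txn2 exceeded Map2k3, Mapk14 exceeded Map3k5 and Map2k7 exceeded Mapk8 in 10 of 10 livers each (exact p = 0.00195 and adjusted p = 0.0044 in every case). The difference was 1.98 ± 0.14 (SD, n = 10) on the log2 scale between the thioredoxins and 0.95 ± 0.69 between Mapk14 and Map3k5. These tests measure how steady a difference is between livers, not the gene lengths that FPKM divides by. Txn1 was divided by 1051 bases and Txn2 by 4208, and counted in reads Txn1 held 50.1% ± 2.46 of the pair (SD, n = 10). Map2k3 exceeded Mapk14 by 0.46 ± 0.47 in 9 of 10 livers (exact permutation adjusted p = 0.0211), and by 0.52 with an exact adjusted p = 0.0563 among the 8 livers whose animal tags begin with CC. The other 4 pairs did not separate beyond their spread. These were Map3k5 and Map2k4, which held their order in 6 livers (exact adjusted p = 0.146), Map2k4 and Map2k7 (7 livers, exact adjusted p = 0.838), Mapk8 and Map2k6 (6 livers, exact adjusted p = 0.433), and Map2k6 and Map3k6 (6 livers, exact adjusted p = 0.146).

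**Figure D1:**
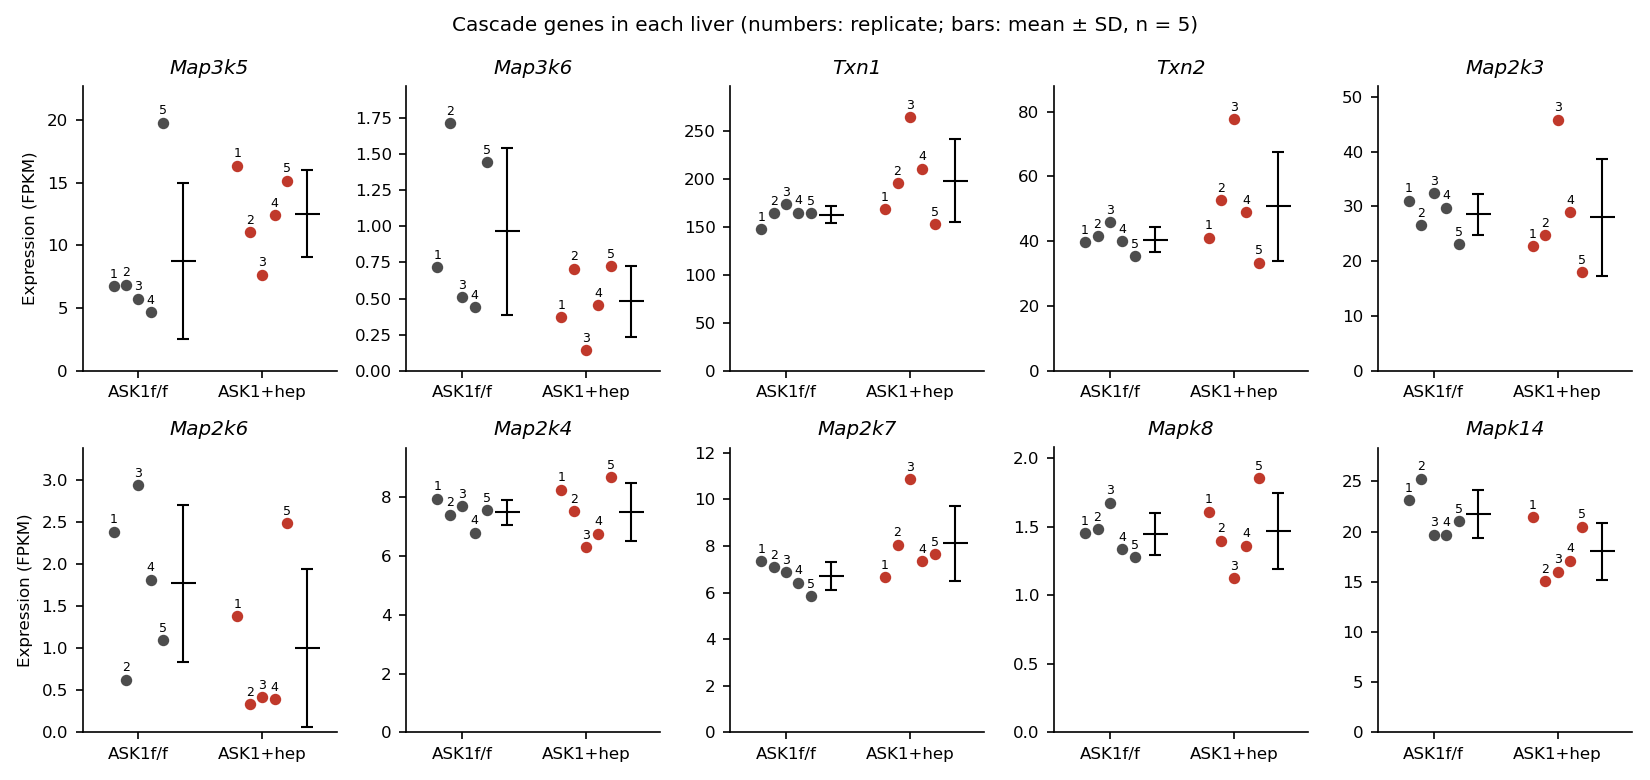
Expression in FPKM of the 10 cascade genes in each liver, with 5 ASK1f/f (grey) and 5 ASK1+hep (red) livers per panel, numbered by replicate, and the mean ± SD beside each group; each panel has its own axis from 0. The groups overlap in every panel, ASK1f/f replicate 5 is the highest liver for Map3k5 at 19.8 FPKM, and ASK1+hep replicate 3 is the highest for Txn1, Txn2, Map2k3 and Map2k7.

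Map3k5 checks the labels, since it is the gene that ASK1+hep mice overexpress. Of the ASK1f/f livers, 4 lay close together, between 4.71 FPKM in replicate 4 and 6.88 FPKM in replicate 2, while the library labelled ASK1f/f replicate 5 was at 19.8 FPKM, the highest of all 10. The ASK1+hep livers ran from 7.68 FPKM in replicate 3, through 11.1 in replicate 2, 12.4 in replicate 4 and 15.2 in replicate 5, to 16.4 in replicate 1. The lowest ASK1+hep liver was thus above 4 of the 5 ASK1f/f livers, and the groups overlapped through 1 library. Counting error was at most 4.79% of a value, small beside the spread between livers.

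The ratio of the Map3k5 means was 1.43, with a log2 fold change of 0.60 and a 95% confidence interval of -0.09 to 1.29 (adjusted p = 0.812 from limma). Without the library labelled ASK1f/f replicate 5 the control mean was 6.02 ± 1.01 FPKM (SD, n = 4), the ratio was 2.08 and the log2 fold change was 0.92. That library was singled out by its Map3k5 value, so these figures are a description. It also had the lowest summed hepatocyte markers of the 10 livers, 31757 FPKM, the highest Kupffer cell markers, 141 FPKM, and the highest neutrophil markers, 15.8 FPKM. Of the hepatocyte markers, Apoa1, Ass1 and Cyp2e1 were lowest in that library, and Alb, Ttr and Cps1 were not. Cholangiocyte markers were highest in it too, at 32.7 FPKM, of which Spp1 alone gave 29.3 FPKM. Stellate cell and exocrine pancreas markers were lowest, at 24.0 and 7.14 FPKM, the latter almost wholly Cela1 at 6.99 FPKM. Over both genotypes these sums overlapped, with 6 Kupffer cell markers at 82.7 to 141 FPKM in control and 52.5 to 132 FPKM in ASK1+hep livers and 4 neutrophil markers at 1.62 to 15.8 and 2.20 to 8.11 FPKM. The part of these in its Map3k5 level was not tested.

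The deposited values do not separate the transgene from the endogenous gene. The ASK1 cDNA and the chromosomal gene, on chromosome 10 from 19934472 to 20142753, share the coding sequence, and the coding sequence makes up 4140 of the 6086 bases by which the reads of Map3k5 were divided. A transcript that carries the cDNA without the untranslated ends of the gene would be divided by the same full length.

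Map3k6 encodes ASK2, which binds ASK1 and is stable in its complex. It was at 0.442, 0.508, 0.716, 1.44 and 1.71 FPKM in ASK1f/f livers, ordered from the lowest, and at 0.142, 0.369, 0.456, 0.705 and 0.725 FPKM in ASK1+hep livers. The highest control livers were replicates 2 and 5, and 2 ASK1+hep livers lay below all controls. The log2 fold change was -0.38 with a 95% confidence interval of -0.78 to 0.03 (adjusted p = 0.812 from limma), and exact two-sided permutation over 5 and 5 livers gave p = 0.143. The size depends on the scale, as it was -0.83 on log2(FPKM + 0.1) and -1.0 by limma-voom on reads (adjusted p = 0.804 and 0.803 from limma). At 9 reads in the lowest liver, counting error was 33.3% of the value.

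The thioredoxins were both even in the controls and wider in ASK1+hep livers. The ends of the ASK1+hep range were replicates 3 and 5, the libraries that were extreme for the most genes. Txn1 was at 148 to 174 FPKM in ASK1f/f livers. In ASK1+hep livers it was at 153 in replicate 5, 169 in replicate 1, 196 in replicate 2, 211 in replicate 4 and 264 FPKM in replicate 3. Of these, 3 exceeded every control, and the coefficient of variation was 5.7% in ASK1f/f and 21.7% in ASK1+hep livers.

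Txn2 was likewise lowest in ASK1+hep replicates 5 and 1, at 33.4 and 41.1 FPKM, and highest in replicate 3, at 77.7 FPKM, against 35.4 to 45.8 FPKM in the controls. Replicates 2, 3 and 4 exceeded every control and replicate 5 was below them. The log2 fold changes were 0.26 (95% confidence interval -0.06 to 0.58) for Txn1 and 0.27 (-0.15 to 0.68) for Txn2, with adjusted p = 0.812 and 0.814 from limma. Without ASK1+hep replicate 3 they were 0.15 and 0.10, and without ASK1+hep replicate 5 they were 0.35 and 0.40 (adjusted p = 0.383 for both from limma).

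Map2k3, which encodes MKK3, was at 23.1 to 32.4 FPKM in ASK1f/f livers. ASK1+hep livers covered a wider range, with replicate 5 the lowest of all 10 livers at 18.0 and replicate 3 the highest at 45.8 FPKM. The means were nearly equal, 28.6 ± 3.75 and 28.1 ± 10.7 FPKM (SD, n = 5 each), and the log2 fold change of -0.09 had a 95% confidence interval of -0.54 to 0.37. Without ASK1+hep replicate 3 it was -0.27.

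Map2k6, which encodes MKK6, the close relative of MKK3, varied more between livers than most genes. Its spread within genotypes, 0.57 on the log2(FPKM + 1) scale, exceeded that of 96.6% of the compared genes. ASK1f/f livers had it at 0.627, 1.09, 1.81, 2.38 and 2.93 FPKM, from the lowest. Of the ASK1+hep livers, replicates 2, 3 and 4 were below all controls, at 0.337, 0.421 and 0.393 FPKM, while replicates 1 and 5 were at 1.38 and 2.49 FPKM, inside the control range. The log2 fold change was -0.51 (95% confidence interval -1.17 to 0.15, adjusted p = 0.812 from limma). It was -0.97 on log2(FPKM + 0.1) and -1.05 by limma-voom on reads.

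Map2k4 and Map2k7 encode MKK4 and MKK7, which phosphorylate JNK on different residues of the same loop. Map2k4 had the smallest fold between its highest and lowest liver of the 10 genes, 1.38, and was at 6.79 to 7.95 FPKM in control and 6.30 to 8.69 FPKM in ASK1+hep livers, with a log2 fold change of 0.00 and a 95% confidence interval of -0.23 to 0.22. Map2k7 was at 5.85, 6.42, 6.86, 7.10 and 7.34 FPKM in the controls, from the lowest, and at 6.66, 7.34, 7.66, 8.06 and 10.9 FPKM in ASK1+hep livers, 4 of which were above all controls. Its log2 fold change was 0.23 (95% confidence interval -0.04 to 0.50, adjusted p = 0.812 from limma), exact two-sided permutation over 5 and 5 livers gave p = 0.0556, and the overlap with Gm49320 makes the level uncertain. Without ASK1+hep replicate 3, its highest liver, the log2 fold change was 0.13.

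The end kinases phosphorylate transcription factors and other kinases. Mapk8 was at 1.28 to 1.68 FPKM in control and 1.12 to 1.85 FPKM in ASK1+hep livers, and its log2 fold change of 0.01, or -0.03 when libraries were scaled by all reads, had a 95% confidence interval of -0.20 to 0.21. Mapk14 was at 19.7, 19.7, 21.01, 23.1 and 25.3 FPKM in ASK1f/f livers, from the lowest. In ASK1+hep livers it was at 15.04, 16.02 and 17.1 FPKM in replicates 2, 3 and 4, all below every control, and at 20.5 and 21.4 FPKM in replicates 5 and 1. Its log2 fold change was -0.27 with a 95% confidence interval of -0.53 to 0.00, and its unadjusted p was the lowest of the 10 genes, narrowly above 0.05 (adjusted p = 0.812 from limma).

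In the comparison of genotypes, 0 of the 10 genes reached an adjusted p at or below 0.05 or an unadjusted p under 0.05 by limma. Over all 13306 genes the shares were 0% (0 genes, lowest adjusted p = 0.355) and 5.77% (768 genes). The groups overlapped for each of the 10, where 0.864% of all genes had groups that did not overlap. Of the 10 log2 fold changes, 5 were above 0 and 5 below, with a median of 0.00 beside -0.01 over all genes. The 10 exact two-sided permutation tests gave p from 0.0556 to 0.96, where 0.00794 is the smallest that 5 livers against 5 allow. Intervals of Map2k4 and Mapk8 bound a change to at most 0.23 in either direction on the log2(FPKM + 1) scale, which understates changes of low genes, while those of Map3k5 and Map2k6 reach beyond 1. The count of cascade genes at an unadjusted p under 0.05 depended on single libraries and on the setting. It was 4 without ASK1+hep replicate 5 (Txn1, Txn2, Map2k6 and Mapk14), 2 without ASK1f/f replicate 3 or 4 or without ASK1+hep replicate 1, and 1 without ASK1f/f replicate 2 or 5 or ASK1+hep replicate 3. With all livers it was 2 when scaled by all reads (Map3k6 and Mapk14) and 2 with the replicate number as a block (Map3k5 and Map3k6). All compared genes at that p then numbered 862 and 880. The count over all 13306 genes also moved, to 1724 without ASK1+hep replicate 5 and 1178 without ASK1+hep replicate 1. It was 557 to 779 without the other livers named here.

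**Figure D2:**
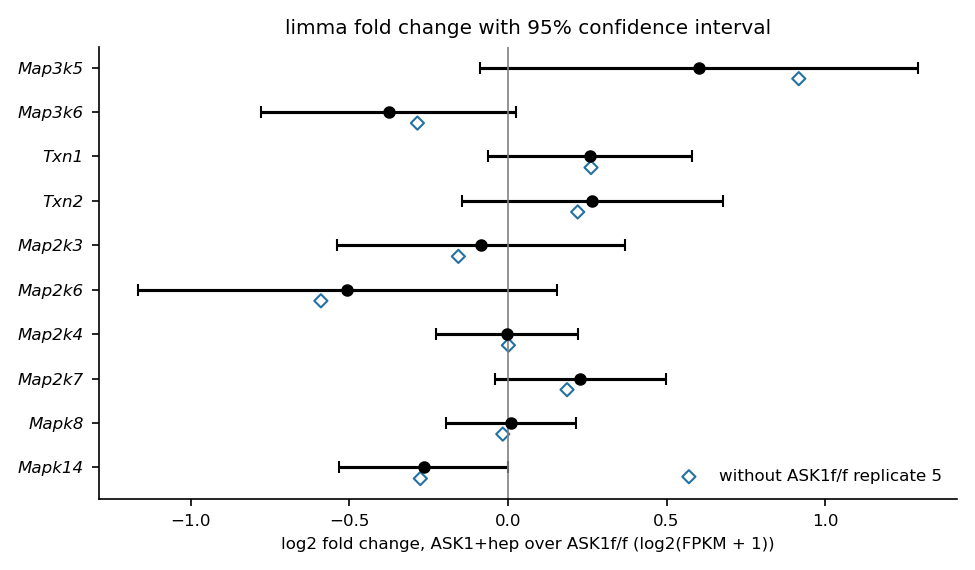
Log2 fold change of ASK1+hep over ASK1f/f on the log2(FPKM + 1) scale for the 10 cascade genes, from limma with 5 livers per genotype; points are estimates, bars are 95% confidence intervals, and open diamonds are estimates without the library labelled ASK1f/f replicate 5. Every interval includes 0, and leaving out that library moves Map3k5 from 0.60 to 0.92.

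A grouping of livers was noticed once their values were seen, and is given without a test. In ASK1+hep replicates 2, 3 and 4, Txn1 and Txn2 were above all controls while Map2k6 and Mapk14 were below all controls. In ASK1+hep replicates 1 and 5, these 4 genes lay within the range of the controls, except Txn2 in replicate 5. Across the 10 livers, Txn1 and Txn2 had the highest correlation of any pair (Pearson r = 0.94), followed by Map2k4 and Mapk8 (r = 0.85), and the lowest were Map2k3 with Map2k4 (r = -0.78) and Txn1 with Mapk14 (r = -0.77). These are given as a description over 10 livers that share a scaling, and without ASK1+hep replicate 3 they were 0.82, 0.76, -0.63 and -0.77.

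Fgf21, the hepatokine that the study centres on, followed the same ASK1+hep livers. It was at 23.4, 25.0 and 30.1 FPKM in ASK1+hep replicates 4, 2 and 3 and at 7.40 and 12.3 FPKM in replicates 5 and 1, where 4.74 FPKM was the highest control. The library labelled ASK1f/f replicate 5, the highest in Map3k5, had Fgf21 at 3.21 FPKM, inside the range of the other controls (2.46 to 4.74 FPKM) and below every ASK1+hep liver.

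Among marker lists, the adipocyte sum was 3.96 to 52.9 FPKM in control and 11.9 to 133 FPKM in ASK1+hep livers, and it was highest in ASK1+hep replicate 3. This sum was almost wholly Cidec, which fat-laden hepatocytes also express, since Lep was at 0 in every liver and Adipoq reached at most 0.0526 FPKM. Erythroid markers were at 333 to 490 FPKM in control and 324 to 1053 FPKM in ASK1+hep livers. Their part in the cascade genes was not tested.

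**Figure D3:**
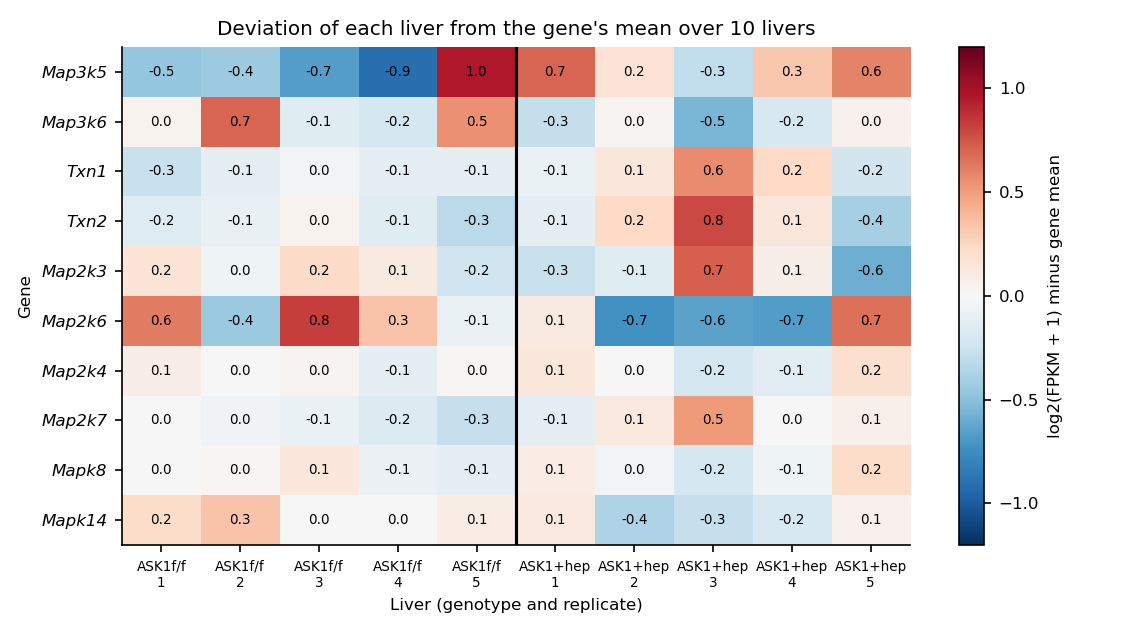
Deviation of each liver from the gene's mean over 10 livers, in log2(FPKM + 1), for the 10 cascade genes (rows) and the livers by genotype and replicate (columns; the line parts ASK1f/f from ASK1+hep); red is above and blue below the mean. ASK1+hep replicate 3 is red for Txn1, Txn2, Map2k3 and Map2k7 and blue for the other 6 genes, and ASK1f/f replicate 5 is the reddest liver for Map3k5.

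Shares within gene families do not depend on how a library was scaled, so each gene was also expressed as a share of its family's FPKM. Across livers, Map3k5 made up 90.8% ± 5.26 (SD, n = 10) of the FPKM of the ASK family, which also holds Map3k6 and Map3k15 (ASK3). Txn1 was 80.0% ± 1.58 of the thioredoxin pair and Map2k3 95.1% ± 3.62 of Map2k3 and Map2k6. Mapk14 was 91.7% ± 2.38 of the p38 genes Mapk11 to Mapk14. Map2k4 and Map2k7 divided their sum nearly equally, Map2k4 holding 50.5% ± 5.53.

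Mapk8 was the minor JNK gene, at 18.0% ± 1.69 of the JNK genes, because Mapk9 (JNK2) was at 6.61 ± 0.645 FPKM (SD, n = 10). Mapk10 (JNK3), known from brain and heart, had 0 reads in every liver, which allows up to 3 reads or 0.0209 FPKM in the library with the highest limit. Shares depend on the length a gene is divided by. Counted in reads, Txn1 held 50.1% ± 2.46 of its pair and Mapk8 27.1% ± 2.26 of its family, while the other 4 shares moved by less than 5 points.

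Of the 6 shares, that of Map3k5 differed between genotypes. It was 78.9% to 91.7% in ASK1f/f livers, the highest being replicate 5, and 92.6% to 95.8% in ASK1+hep livers, so every ASK1+hep liver was above every control. The means were 87.0% ± 4.83 and 94.7% ± 1.47 (SD, n = 5 each), a difference of 7.67 points (exact two-sided permutation test, p = 0.00794, adjusted p = 0.0476 over 6 shares). The gap between the groups was narrow: as shares of reads, ASK1f/f replicate 5 was at 93.6% (95% Wilson interval 92.5% to 94.6%) and ASK1+hep replicate 2 at 94.4% (92.7% to 95.7%), and these intervals, which cover counting error only, overlap. Without ASK1f/f replicate 5 the difference was 8.84 points. Without any 1 of the ASK1+hep livers it was 7.40 to 8.19 points, with an exact adjusted p = 0.0952, above the smallest that the splits of those livers allow. Among the 8 livers with CC tags it was 7.56 points, with an exact adjusted p = 0.171, where the fewer splits limit the smallest p. The share joins a higher Map3k5 with a lower Map3k6, neither of which passed its own test.

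The other 5 shares did not separate the genotypes, with exact permutation adjusted p from 0.357 to 0.881. Map2k4 made up 52.7% ± 2.14 of Map2k4 and Map2k7 in ASK1f/f and 48.3% ± 7.19 in ASK1+hep livers, where replicate 3 was the lowest at 36.7%. Mapk14 made up 92.8% ± 1.08 and 90.6% ± 2.94 of the p38 genes, and again replicate 3 was the lowest at 85.7%.

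**Figure D4:**
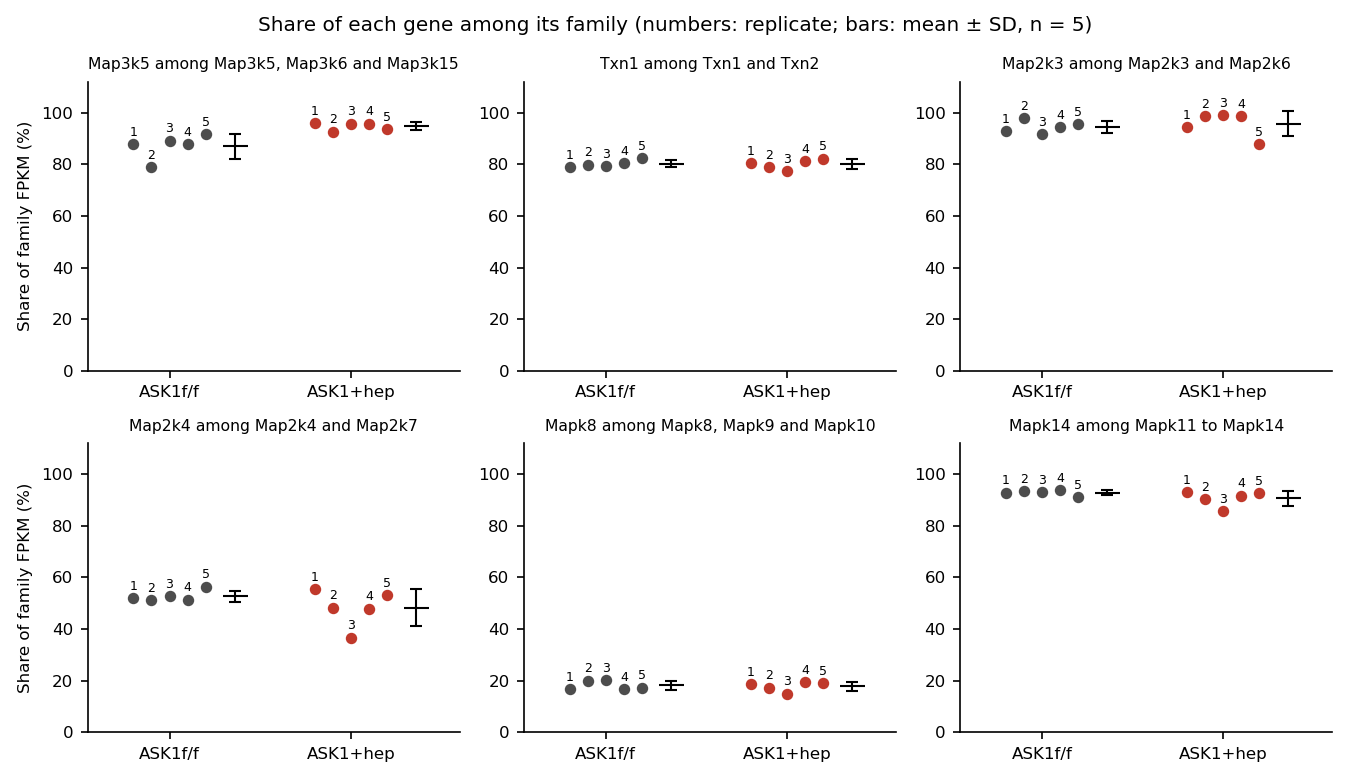
Share in percent of family FPKM held by 6 cascade genes in each liver, for 5 ASK1f/f (grey) and 5 ASK1+hep (red) livers numbered by replicate, with mean ± SD; all axes run from 0. The Map3k5 share is 78.9% to 91.7% in ASK1f/f and 92.6% to 95.8% in ASK1+hep livers, while the other shares overlap and Mapk8 stays near 18%.

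Whether livers with more Map3k5 RNA differed in the other genes was asked over the 10 livers, irrespective of genotype, as 10 relations on the log2(FPKM + 1) scale. The strongest was with Map2k3, whose kinase ASK1 activates: Pearson r = -0.64 (permutation p = 0.0401, adjusted p = 0.401 over 10 relations) and Spearman rho = -0.75 (permutation p = 0.0175, adjusted p = 0.175, n = 10). Without the 2 livers farthest from the Map3k5 median, ASK1f/f replicates 4 and 5, r was -0.68 (exact permutation p = 0.0545, n = 8). It was -0.60 among the 8 livers with CC tags. For the other 8 cascade genes r lay between -0.29 (Txn2) and 0.42 (Map2k4), with permutation adjusted p at or above 0.869. In deviations from the genotype means, Map2k3 (r = -0.67, rho = -0.78), Map2k7 (r = -0.65, rho = -0.76), Txn2 (r = -0.62, rho = -0.65) and Map3k6 (r = 0.62, rho = 0.73) had relations of similar size. Their permutation adjusted p was 0.18 by Pearson's r, and 0.0666 to 0.124 by Spearman's rho (n = 10). The relation with Fgf21 was also weak (r = 0.30, rho = 0.42, permutation adjusted p = 0.869 and 1.0, n = 10), and in deviations from the genotype means it was r = -0.35.

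The genes whose level followed Map3k5 most closely over the 10 livers, among 10050 others with a mean of at least 1 FPKM, were Tango2 (r = 0.88), Sesn2, Mtnr1a, Ctps2 and Acnat2 (r = 0.86). The most opposed were Bdh2 (r = -0.95), Ppp1r1b, Hadh, Gm15421 and Scnn1a (r = -0.89). These are the extremes of many correlations and are given without a test. Sesn2, a stress-induced sestrin, was at 2.56 ± 1.06 FPKM in control and 3.31 ± 0.252 FPKM in ASK1+hep livers (SD, n = 5 each), with 4.41 FPKM in ASK1f/f replicate 5. Acnat2, an acyltransferase gene, was at 13.5 ± 10.7 and 23.0 ± 4.89 FPKM (SD, n = 5 each), and at 32.2 FPKM in ASK1f/f replicate 5. Bdh2 was lowest in that same library, at 1.47 FPKM, and so was Hadh, an enzyme of fatty acid oxidation, at 53.9 FPKM. Without that library r was 0.83 for Tango2, 0.82 for Sesn2, 0.83 for Acnat2 and -0.93 for Bdh2.

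Around the 10 genes, 100 others were listed in 7 groups by their textbook place in the pathway, and 95 of them passed the filter. None had an adjusted p at or below 0.05, and 4 had an unadjusted p under 0.05 by limma, 2 higher and 2 lower in ASK1+hep livers, which is 4 of 95 beside 5.77% of all genes. Log2 fold changes were above 0 for 49 and below 0 for 46.

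The 15 other MAP3K genes of the JNK and p38 routes that were tested had a median log2 fold change of -0.04 and a range of -0.29 to 0.24. Taok3, a kinase of the TAO family, and Map3k3 (MEKK3) marked the ends, at 3.58 ± 0.534 against 4.47 ± 0.905 FPKM and at 3.44 ± 0.547 against 2.70 ± 0.871 FPKM (SD, n = 5 each, ASK1f/f first).

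Of the 17 binding partners and regulators of ASK1, 1 was higher and 1 lower at an unadjusted p under 0.05, and the median log2 fold change was 0.05. Ywhaz encodes 14-3-3 zeta, of the family that binds phosphorylated ASK1. It was at 20.98 to 24.1 FPKM in control and 26.5 to 31.2 FPKM in ASK1+hep livers, with a log2 fold change of 0.28 (standard error 0.09, adjusted p = 0.812 from limma). The groups did not overlap, which held for 0.864% of all compared genes, and Ywhaz was named for its low p. The groups overlapped for the other listed 14-3-3 genes, with log2 fold changes from -0.04 (Ywhab) to 0.18 (Ywhah). Pgam5, a mitochondrial phosphatase that can dephosphorylate ASK1, was at 2.38 to 3.18 FPKM in control and 0.795 to 2.42 FPKM in ASK1+hep livers, with a log2 fold change of -0.45 (standard error 0.16, adjusted p = 0.812 from limma). The lowest liver was ASK1+hep replicate 3.

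The 15 genes of the thioredoxin system had a median log2 fold change of 0.05, 13 above 0 and 2 below, and 0 with an unadjusted p under 0.05. Srxn1, which encodes sulfiredoxin, was at 14.2 ± 3.43 FPKM in control and 17.0 ± 4.48 FPKM in ASK1+hep livers. Txnip, the inhibitor that binds reduced thioredoxin, was at 19.2 ± 3.97 and 24.7 ± 8.89 FPKM (SD, n = 5 each).

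The 9 other JNK and p38 genes and scaffolds tested had a median log2 fold change of -0.03. Mapk8ip1, the scaffold JIP1, was at 0.328 ± 0.0818 against 0.476 ± 0.134 FPKM and Arrb1, which encodes beta-arrestin 1, at 1.05 ± 0.199 against 0.86 ± 0.251 FPKM (SD, n = 5 each, ASK1f/f first). Mapk8ip1 rests on 14 to 39 reads per liver.

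Among 18 effectors of JNK and p38 the median log2 fold change was 0.02, and 1 gene, Jun, had an unadjusted p under 0.05. Jun, the transcription factor that JNK is named for, was at 3.52, 3.53, 3.87, 4.09 and 11.3 FPKM in ASK1f/f livers, from the lowest, the last being replicate 2. It was at 6.97, 7.76, 9.87, 19.6 and 31.7 FPKM in ASK1+hep livers, and replicates 3 and 4 were the highest. All ASK1+hep livers were above 4 of the 5 controls, with a log2 fold change of 1.27 (standard error 0.40, adjusted p = 0.812 from limma). Jund, its relative, was at 21.8 to 37.96 FPKM in control and 22.7 to 107 FPKM in ASK1+hep livers, the last again replicate 3.

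The 9 upstream receptors and adapters tested had a median log2 fold change of -0.11. Tlr4, the endotoxin receptor, was at 0.195 ± 0.0820 against 0.101 ± 0.0513 FPKM and Il1r1, the interleukin-1 receptor, at 18.0 ± 11.5 against 9.92 ± 6.34 FPKM (SD, n = 5 each, ASK1f/f first). In the ERK cascade, a parallel relay for growth signals, the median of 12 genes was -0.09. Ksr1, a scaffold of that cascade, had an unadjusted p under 0.05, at 0.339 ± 0.0553 against 0.225 ± 0.0793 FPKM (log2 fold change -0.13, adjusted p = 0.812 from limma), and Map2k5 was at 6.23 ± 0.797 against 7.06 ± 0.816 FPKM. Ksr1 and Tlr4 rest on few reads, 11 to 45 and 4 to 28 per liver.

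**Figure D5:**
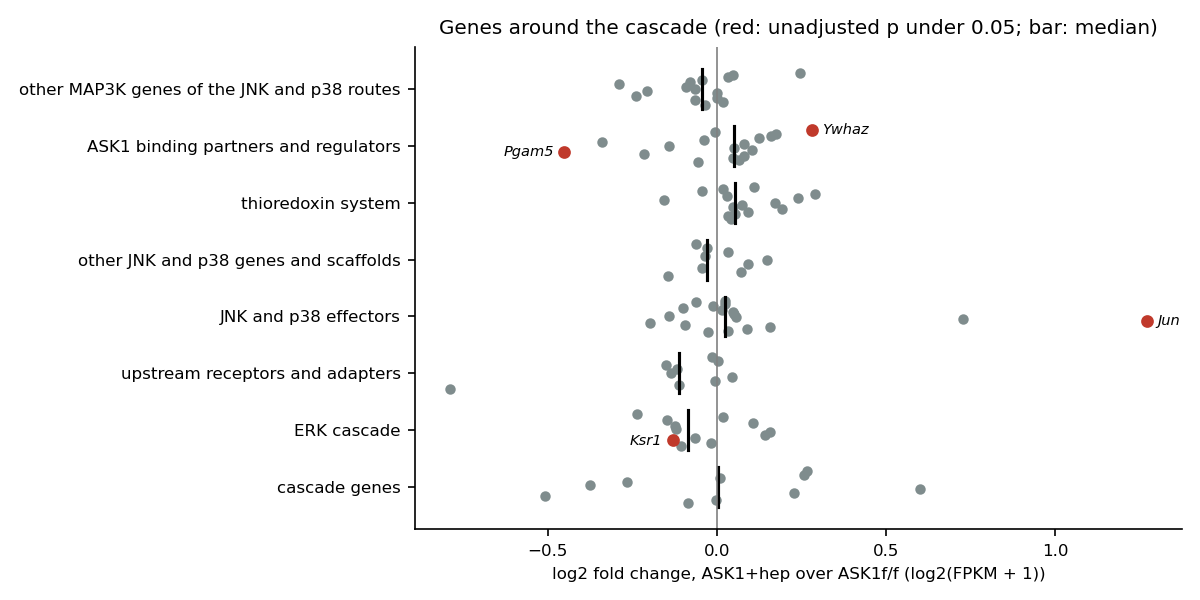
Log2 fold change of ASK1+hep over ASK1f/f on the log2(FPKM + 1) scale for the 95 tested genes of 7 lists around the cascade and for the 10 cascade genes (bottom row), 1 point per gene from limma with 5 livers per genotype; red and named points have an unadjusted p under 0.05 and bars are list medians. Medians lie between -0.11 and 0.05, and the 4 red points are Ywhaz, Pgam5, Jun and Ksr1.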

How the data were processed

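Liver RNA of 10 mice, 5 ASK1f/f and 5 ASK1+hep per the labels, had been sequenced as poly-A RNA. According to the methods and labels, the authors cleaned reads with fastp, mapped them with Hisat2 and counted them with FeatureCounts. They deposited FPKM per gene. The genome build and strandedness were not given in the sources used here, and 98.3% of the 54409 genes found in GENCODE M21 had its GRCm38 coordinates. The authors' test, DESeq2, was not repeated, although reads could be recovered from the FPKM. Which genes it would call on those reads was not tested. FPKM times gene length gave whole reads (within 0.01) for 100% of values, used for depth, the filter and limma-voom.

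Genes reaching 10 reads (scaled to the median depth) in 5 or more livers, and 15 in total, were compared on log2(FPKM + 1) by limma 3.58.1 in R 4.3.3, with a mean-variance trend, no covariates and Benjamini-Hochberg adjustment. This scale understates changes of low genes. Single values were compared by exact permutation, correlations with 100000 permutations. The limma step was tested on simulated reads with a fixed spread for every gene and no outlying liver, which does not measure its power on these livers. Each library carries its own animal tag, and no pair agreed within sampling noise (lowest chi-square per degree of freedom 19.2). The 10 genes, the 7 lists and the tests were chosen with earlier results of these data known. Genes named were the 10, Fgf21, the 2 of lowest p per list, and the 5 most and 5 least correlated with Map3k5. Alternatives were other filters, pseudocount, scaling, limma-voom, a replicate block, the animal tag prefix (SN or CC) as covariate or CC alone, and each liver left out.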

Additional observations from a re-analysis of the deposited data

Results flagged for a closer look

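In 62 groups of 5 livers (31 values in each genotype), 3 had a liver whose gap to the nearest other exceeded 0.71 of the group's range. Chance alone gives about 1 in 20, so 3 of 62 is about the number that chance gives. Map3k5 in ASK1f/f replicate 5 was at 19.8 FPKM, against 4.71 to 6.88 FPKM in the other 4 ASK1f/f livers. Jun in ASK1f/f replicate 2 was at 11.3 FPKM, against 3.52 to 4.09 FPKM in the other 4. Taok3 in ASK1f/f replicate 1 was at 4.51 FPKM, against 3.21 to 3.53 FPKM in the other 4.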

How the results depend on the processing

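limma gave 0 genes past the adjusted threshold with all livers (768 at an unadjusted p under 0.05), and 0 to 1 with a liver left out, the 1 being Fgf21 without ASK1+hep replicate 5 (log2 fold change 2.35, adjusted p = 0.0161). The count at an unadjusted p under 0.05 was 1222 with no filter and 557 to 1724 with a liver left out, 1178 without ASK1+hep replicate 1 and 1724 without replicate 5. Cascade genes at that p numbered 1 without a filter, with tag prefix as covariate or with CC tags alone, 2 when scaled by all reads, 2 with the replicate block, and 0 to 4 with a liver left out. All compared genes at that p numbered 733 with tag prefix as covariate, 946 with CC tags alone, 862 when scaled by all reads and 880 with the block. The log2 fold change of Map3k5 was 0.45 to 0.92 with a liver left out. Scaled by all reads it was 0.53, beside 0.18 for Txn1, 0.19 for Txn2 and 0.16 for Map2k7. On that scaling it was -0.34 for Mapk14 and -0.40 for Map3k6.

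Same-numbered livers are different animals. Their tags are consecutive in 4 of 5 pairs, but no label says that a number marks a litter. Deviations from the genotype means correlated at 0.0212 to 0.174 over the 5 pairs, above 0.1 in 2 of them. The mean was 0.107, against -0.0275 for livers of different genotype and number, and 6 of 10 livers correlated best with their own number. Since no label states a pairing, the block was kept as an alternative. With the block the genes at an unadjusted p under 0.05 numbered 880, among them Map3k5 (higher in 4 of 5 pairs, adjusted p = 0.727 from limma) and Map3k6 (lower in 4 of 5 pairs, adjusted p = 0.719 from limma). The pair with lower Map3k5 in the ASK1+hep liver was replicate 5 (log2 difference -0.36), the pair without consecutive tags. The Map3k5 share difference stayed 7.67 points but had an exact adjusted p = 0.375, since 5 pairs cannot reach 0.05; it was 7.56 points with CC tags alone and 5.64 to 8.84 points with a liver left out.

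Values near 0 changed sign. Map2k3 had a log2 fold change of 0.0024 with CC tags alone and -0.27 to 0.0501 with a liver left out, Map2k4 -0.0519 to 0.0499, and Mapk8 -0.0346 scaled by all reads, -0.0111 with CC tags alone and -0.0452 to 0.0614 with a liver left out. The Txn1 share difference was -0.69 to 0.51 points and that of Mapk8 -0.69 to 0.42 points with a liver left out. Map2k4 minus Map2k7 was -0.0181 with CC tags alone, -0.0925 in ASK1+hep alone and -0.0102 to 0.10 with a liver left out, and Mapk8 minus Map2k6 was -0.11 in ASK1f/f alone. Correlations of Map3k5 turned for Map3k6 (-0.23 without the 2 farthest livers, -0.11 to 0.48 with a liver left out), Map2k6 (0.0185 in deviations from genotype means), Mapk14 (0.35 in such deviations, 0.051 scaled by all reads, -0.18 to 0.0665 with a liver left out), Fgf21 (-0.35 in such deviations), Txn1 (-0.16 to 0.15), Map2k7 (-0.39 to 0.078) and Mapk8 (-0.0885 to 0.37). The cause was not tested. Map3k6 and Map2k6 are limited by depth, with as few as 9 and 15 reads in a liver.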
